A study of Mus musculus with 6 samples.

Results

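The integrin and laminin chain genes are described here across 6 mouse RNA-seq libraries. Rows were taken from the count table where the gene was protein coding and its symbol matched the pattern of an integrin alpha or beta chain or of a laminin alpha, beta or gamma chain. The rule found 33 of the 18908 rows, without using any measured value. They are 21 integrin chains (14 alpha and 7 beta), 9 laminin chains (3 alpha, 3 beta and 3 gamma) and 3 other gene products whose symbols begin like an integrin's, reported apart at the end. Itga11, Itgam, Itgad, Itgax, Itgb6, Itgb2l, Lama1 and Lama2 have no row in the table used here.

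The title of the study concerns VprBP, osteoclast differentiation and histone H2A phosphorylation. 3 libraries are labelled as VprBP1 knockdown in bone marrow-derived macrophages, which received an shRNA (a short hairpin RNA meant to lower a matching transcript) against VprBP1. They are set against 3 libraries labelled WT, from the same named cells with a control shRNA. The labels give neither the hairpin sequence nor the vector nor the age or strain of the mice. They do not say that replicate libraries stem from different cultures or mice, and the p-values below rest on a spread that may be purely technical. Values are counts per gene scaled to the library total with TMM factors (CPM), and for comparisons between genes CPM is divided by the length of the gene's exons in kilobases.

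Integrins are cell surface receptors made of an alpha and a beta chain, and the pair decides which ligand is bound. They anchor the cytoskeleton to matrix proteins such as collagen, fibronectin and laminin, or to proteins on other cells. Laminins are secreted trimers of an alpha, a beta and a gamma chain that form the network of basement membranes and are ligands of several integrins. Leukocytes carry their own integrins built on Itgb2, and osteoclasts attach to bone largely through the pair of Itgav and Itgb3.

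Total counts per library ranged from 16839445 to 21838875, so that a gene without counts could still lie as high as 0.144 to 0.186 CPM, depending on the library (3 counts, counting error only). Dcaf1, the gene that encodes VprBP, stood at 36.0, 34.6 and 36.8 CPM in VprBP shRNA libraries, against 42.2, 43.5 and 40.7 CPM in control shRNA libraries, a log2 difference of -0.24 (SE 0.07, edgeR adjusted p = 0.00625). With scaling by library size alone it was not called, at -0.12 (edgeR adjusted p = 0.137). The groups are therefore named by their labels. The labelled cell type was checked against its markers. Of 10 macrophage marker genes 4 have a row, and their summed level was 16.5 to 18.2 CPM in VprBP shRNA libraries and 37.1 to 40.2 CPM in control shRNA libraries, whereas 8 pigment cell genes summed to 19650 to 20160 CPM in VprBP shRNA libraries and 21070 to 21450 CPM in control shRNA libraries. Single pigment cell genes moved in opposite directions. Tyr, Sox10 and Mitf rose 3.8-, 3.5- and 3.4-fold, Dct 1.5-fold and Tyrp1 1.06-fold. Pmel, Mlana and Slc45a2 fell, with log2 differences of -1.48, -1.42 and -1.93. Of the macrophage markers, Cd68 fell, with 1.01 ± 0.270 CPM in VprBP shRNA libraries and 31.6 ± 1.20 CPM in control shRNA libraries. Mertk rose, with 13.3 ± 0.696 CPM in VprBP shRNA libraries and 5.35 ± 0.739 CPM in control shRNA libraries, and so did Lyz2, with 2.51 ± 0.304 CPM in VprBP shRNA libraries and 1.05 ± 0.212 CPM in control shRNA libraries. Csf1r, Adgre1, Spi1, Tyrobp, Aif1 and Fcgr1 have no row, and neither have the myeloid integrin chains Itgam and Itgax. These values go against the macrophage label in both groups. Whether the labels belong to these libraries is not known, which bears on the meaning of every comparison of the groups. Mitochondrially encoded genes took 4.89% to 5.56% of counts in VprBP shRNA libraries and 8.65% to 9.48% in control shRNA libraries, and with these genes left out of the scaling every called chain kept its call.

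Most chains of both families were more abundant in VprBP shRNA libraries. All 21 integrin chains and 5 of the 9 laminin chains had enough counts to be tested, and a gene was called at an edgeR adjusted p below 0.05. Of the 21 integrin chains, 15 rose, 4 fell and 2 were not called. All 5 tested laminin chains rose. Across the 14641 tested genes 75.0% were called, 37.9% of them higher and 37.0% lower, with the percentages taken over all tested genes. With a change of at least 2-fold asked for as well, 33.6% of all tested genes were called, 19.4% higher and 14.2% lower. By that rule 13 integrin chains rose and 3 fell, and 3 laminin chains rose. The median log2 difference was 1.28 for the tested integrin chains and 1.10 for the tested laminin chains, beside -0.01 for all tested genes. The libraries of the groups did not overlap for 20 tested integrin chains, 16 of them higher, nor for the 5 tested laminin chains, while 39.0% of all tested genes were higher and 38.2% lower without overlap. Of 22 members averaging at least 10 CPM in a group, 17 rose and 5 fell, and among all tested genes at that level 41.6% rose and 42.2% fell. Chains are not replicates and no test was made over them.

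**Figure D1:**
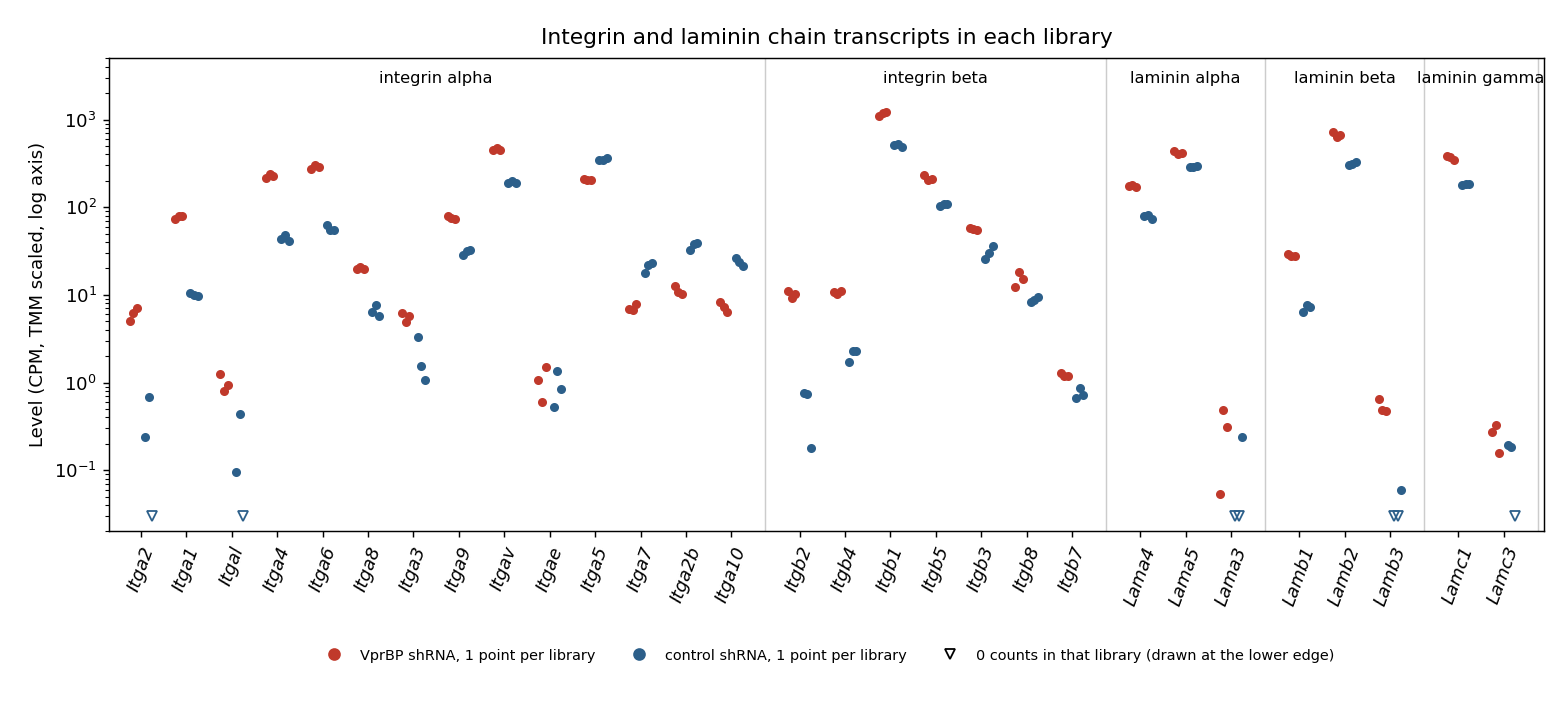
Level of the integrin and laminin chains in CPM on a log axis, with 1 point per library, VprBP shRNA in red on the left and control shRNA in blue on the right of each gene, ordered within a class by the log2 difference with the untested genes last. Points of the 2 groups separate for most chains, and Itga5, Itga7, Itga2b and Itga10 are the alpha chains whose VprBP shRNA points lie below the control shRNA points.

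Receptors for collagen moved in opposite directions. Itga1, which pairs with Itgb1 and binds collagen, including the type IV collagen of basement membranes, was measured at 72.95, 80.3 and 80.2 CPM in VprBP shRNA libraries and at 10.4, 9.97 and 9.79 CPM in control shRNA libraries. It rose 7.73-fold (log2 difference 2.95, SE 0.08, edgeR adjusted p = 6.28e-16), with a wide gap between the groups. Itga2, another collagen receptor chain, had 5.01, 6.26 and 7.14 CPM in VprBP shRNA libraries, against 0.239, 0.681 and 0 CPM in control shRNA libraries. It rose 20.1-fold (log2 difference 4.33, SE 0.48, edgeR adjusted p = 1.97e-07), but the control shRNA value rests on 16 counts over 3 libraries, so the size of the fold is uncertain. Without control shRNA library 2 the log2 difference was 5.47, and without control shRNA library 3 it was 3.78. Itga1 and Itga2 lie on the minus strand of chromosome 13, at 114953096 to 115101964 and 114833081 to 114932100 (GRCm38), with 20995 bases between them. Itga10, a collagen receptor chain best known from cartilage, went the other way, at 8.20, 7.29 and 6.36 CPM in VprBP shRNA libraries and 26.1, 23.9 and 21.4 CPM in control shRNA libraries. It fell by 1.71 on the log2 scale (SE 0.13, edgeR adjusted p = 9.37e-10). A readthrough gene, Gm42957, covers 33.5% of the exon bases of Itga10 and was given 0.760 ± 0.381 CPM in VprBP shRNA libraries and 1.17 ± 0.507 CPM in control shRNA libraries, and how shared reads were split between them is not known. Per kilobase of exon, the ratio of Itga1 to Itga10 was 3.02 ± 0.518 in VprBP shRNA libraries and 0.118 ± 0.00854 in control shRNA libraries (SD, n = 3 each).

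The laminin receptor chains also split. Itga6, the main laminin-binding alpha chain, which pairs with Itgb1 or Itgb4, stood at 272, 304 and 289.7 CPM in VprBP shRNA libraries and at 62.6, 55.2 and 55.2 CPM in control shRNA libraries. It rose 4.998-fold (log2 difference 2.32, SE 0.06, edgeR adjusted p = 3.19e-16), and its groups lay far apart. Itgb4, which pairs only with Itga6 and links it to keratin filaments in hemidesmosomes, had 10.8, 10.3 and 10.9 CPM in VprBP shRNA libraries, against 1.72, 2.29 and 2.27 CPM in control shRNA libraries. It rose 5.13-fold (log2 difference 2.36, SE 0.19, edgeR adjusted p = 3.2e-09). Per kilobase, Itga6 exceeded Itgb4 by a ratio of 21.1 ± 1.81 in VprBP shRNA libraries and 21.9 ± 5.45 in control shRNA libraries, values that overlap between the groups. Itga3, a laminin receptor chain of epithelia, stood at 6.15, 4.86 and 5.74 CPM in VprBP shRNA libraries and 3.30, 1.55 and 1.07 CPM in control shRNA libraries. It rose 2.75-fold (SE 0.32 on the log2 scale, edgeR adjusted p = 0.000459), and control shRNA library 1 lay above the other two. Without that library the log2 difference was 2.08, in place of 1.46, and without control shRNA library 3 it was 1.16. Itga7, the laminin receptor chain of muscle, was the exception, with 6.90, 6.75 and 7.82 CPM in VprBP shRNA libraries and 17.95, 21.99 and 23.04 CPM in control shRNA libraries. It fell by 1.55 on the log2 scale (SE 0.13, edgeR adjusted p = 6.49e-09). The ratio of Itga6 to Itga7 per kilobase was 36.3 ± 3.70 in VprBP shRNA libraries and 2.51 ± 0.539 in control shRNA libraries.

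Among chains that bind the Arg-Gly-Asp motif of fibronectin, vitronectin and latent TGF-beta, 5 rose and 2 fell. Of all tested genes 37.9% rose and 37.0% fell, so being called does not set these chains apart. Itga5, the alpha chain of the classical fibronectin receptor, was measured at 207, 202 and 205 CPM in VprBP shRNA libraries, against 349, 344 and 361 CPM in control shRNA libraries. Its level fell by 0.78 on the log2 scale (SE 0.04, edgeR adjusted p = 9.35e-12), and the groups did not overlap. Itgav, the alpha chain shared by Itgb1, Itgb3, Itgb5, Itgb6 and Itgb8, had 452, 478 and 451 CPM in VprBP shRNA libraries and 187, 197 and 187 CPM in control shRNA libraries. Its rise was 2.42-fold (log2 difference 1.28, SE 0.04, edgeR adjusted p = 1.8e-14). Itga8, a receptor chain for nephronectin and fibronectin, stood at 19.62, 21.01 and 19.50 CPM in VprBP shRNA libraries and at 6.32, 7.74 and 5.73 CPM in control shRNA libraries. That is a 3.04-fold rise (edgeR adjusted p = 3.77e-09).

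Itga2b, which forms the platelet fibrinogen receptor with Itgb3, stood at 12.6, 10.8 and 10.3 CPM in VprBP shRNA libraries and at 32.6, 38.2 and 38.7 CPM in control shRNA libraries. It fell by 1.70 on the log2 scale (SE 0.11, edgeR adjusted p = 8.46e-11). Megakaryocyte markers were near the floor in both groups, with 2 of 6 having a row and a sum of 0.702 to 1.67 CPM in VprBP shRNA libraries and 0.239 to 1.05 CPM in control shRNA libraries. Its partner Itgb3 had 57.1, 57.0 and 55.0 CPM in VprBP shRNA libraries and 25.8, 30.2 and 35.6 CPM in control shRNA libraries. Itgb3 thus rose 1.85-fold (log2 difference 0.89, SE 0.09, edgeR adjusted p = 8.61e-08) while Itga2b fell, and Itga2b over Itgb3 per kilobase was 0.215 ± 0.0207 in VprBP shRNA libraries and 1.30 ± 0.112 in control shRNA libraries. Per kilobase the osteoclast pair stood at 42.9 ± 1.44 CPM (Itgav) and 9.55 ± 0.201 CPM (Itgb3) in VprBP shRNA libraries, and at 17.7 ± 0.575 CPM (Itgav) and 5.17 ± 0.836 CPM (Itgb3) in control shRNA libraries.

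Itga4, which pairs with Itgb1 or Itgb7 and binds VCAM-1 and fibronectin, had 215, 236 and 226 CPM in VprBP shRNA libraries and 43.1, 48.1 and 41.2 CPM in control shRNA libraries. It rose 5.12-fold (log2 difference 2.36, SE 0.06, edgeR adjusted p = 3.3e-16). Its close relative Itga9, a receptor chain for tenascin and other matrix proteins, stood at 79.4, 75.7 and 73.3 CPM in VprBP shRNA libraries and at 28.1, 31.5 and 32.6 CPM in control shRNA libraries, a 2.48-fold rise (edgeR adjusted p = 1.04e-11). Exons of Cerkl overlap 8.0% of the Itga4 exon bases on the opposite strand. Both chains were separated between the groups in all 3 libraries each.

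Leukocyte integrin chains had low counts in both groups, except for Itgb2 in VprBP shRNA libraries. Itgb2, the beta chain common to leukocyte integrins, had 11.2, 9.23 and 10.2 CPM in VprBP shRNA libraries, against 0.766, 0.743 and 0.179 CPM in control shRNA libraries. It rose 17.6-fold (log2 difference 4.14, SE 0.30, edgeR adjusted p = 6.05e-10), with only 31 counts over the control shRNA libraries. Itgal, which pairs with Itgb2 on lymphocytes, had 1.24, 0.810 and 0.939 CPM in VprBP shRNA libraries and 0.0957, 0.434 and 0 CPM in control shRNA libraries. Its 5.69-fold rise (SE 0.71 on the log2 scale, edgeR adjusted p = 0.00393) rests on 9 counts over the control shRNA libraries. Without control shRNA library 2 its log2 difference was 4.08, in place of 2.51, and without control shRNA library 3 it was 1.95. A filter of at least 1 CPM in at least 3 libraries removed Itgal from the test. Neither Itgae, the partner of Itgb7 on lymphocytes in epithelia, nor Itgb7 itself was called. Itgae averaged 1.06 ± 0.459 CPM in VprBP shRNA libraries and 0.908 ± 0.423 CPM in control shRNA libraries (edgeR adjusted p = 0.659), and Itgb7 1.23 ± 0.0581 CPM in VprBP shRNA libraries and 0.751 ± 0.103 CPM in control shRNA libraries (edgeR adjusted p = 0.139). Of 5 pan-leukocyte markers 3 have a row, without the defining Ptprc, and their sum was 4.21 to 5.95 CPM in VprBP shRNA libraries and 0.372 to 0.766 CPM in control shRNA libraries. Their part in the rise of Itgb2 and Itgal was not tested, and in bulk RNA fewer cells of a type and less RNA per cell cannot be told apart.

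Of the 7 beta chains 6 were called, all of them higher, and Itgb7 was not called. Of all tested genes 75.0% were called and 37.9% were called higher. Itgb1, the partner of most alpha chains, was measured at 1099, 1186 and 1204 CPM in VprBP shRNA libraries and at 517, 520.2 and 491 CPM in control shRNA libraries, a 2.28-fold rise (log2 difference 1.19, SE 0.04, edgeR adjusted p = 3.14e-14). Itgb5, which pairs with Itgav to bind vitronectin, stood at 233, 205 and 207 CPM in VprBP shRNA libraries and at 104, 109 and 108 CPM in control shRNA libraries, and rose 2.02-fold (edgeR adjusted p = 9.65e-12). Itgb8, whose pair with Itgav activates latent TGF-beta, had 12.3, 18.4 and 15.3 CPM in VprBP shRNA libraries and 8.18, 8.80 and 9.49 CPM in control shRNA libraries. It rose 1.74-fold (edgeR adjusted p = 0.000111), with the widest spread among VprBP shRNA libraries of the called beta chains in CPM relative to its mean.

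**Figure D2:**
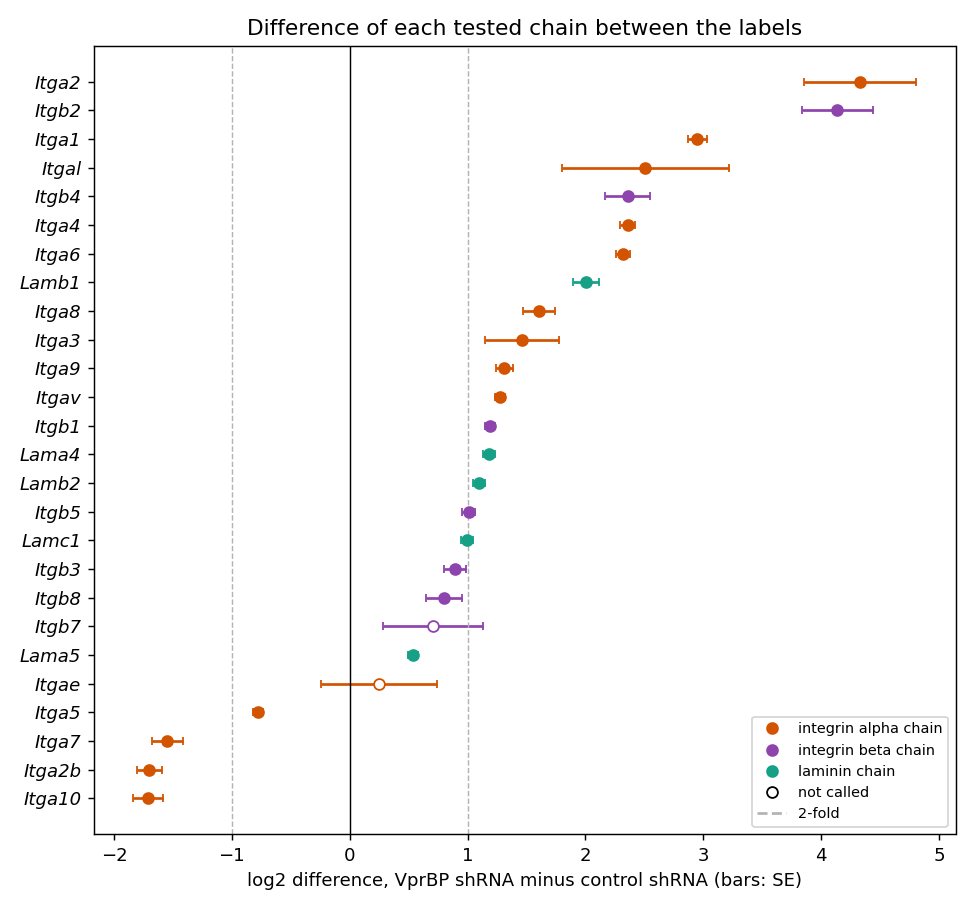
Fitted log2 difference of each tested chain, VprBP shRNA minus control shRNA, with bars of 1 SE and dashed lines at 2-fold, where open points were not called. Itga10, Itga2b, Itga7 and Itga5 lie left of 0, and the 5 laminin chains lie between 0.53 and 2.002.

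The make-up of the alpha chain pool differed more than that of the beta chain pool. On the scale of CPM per kilobase of exon, Itga5 took 27.4%, 25.7% and 26.8% of all alpha chain signal in VprBP shRNA libraries, against 60.4%, 58.9% and 61.2% in control shRNA libraries. The share of Itgav was 27.5 ± 0.421% in VprBP shRNA libraries and 14.9 ± 0.503% in control shRNA libraries, and that of Itga6 20.5 ± 0.779% in VprBP shRNA libraries and 5.39 ± 0.453% in control shRNA libraries. Itga4 held 10.4 ± 0.289% in VprBP shRNA libraries and 2.67 ± 0.220% in control shRNA libraries (SD, n = 3 each). On this scale Itgav and Itga5 led the order of alpha chains in VprBP shRNA libraries, at 42.9 ± 1.44 and 41.5 ± 0.506 CPM per kilobase. Within these libraries the ratio of Itga5 to Itgav was 0.998, 0.920 and 0.989, so Itgav was slightly ahead in each. Itga5 led alone in control shRNA libraries, at 71.3 ± 1.75 CPM per kilobase, followed by Itgav at 17.7 ± 0.575 and by Itga2b and Itga6 at 6.69 ± 0.619 and 6.39 ± 0.474, which did not differ beyond their spread. Without division by length the share of Itga5 was 14.7% in VprBP shRNA libraries and 45.3% in control shRNA libraries, and the order in VprBP shRNA libraries changed to Itgav at 33.05%, Itga6 at 20.7%, Itga4 at 16.2% and then Itga5. Itgb1 held 78.7 ± 1.81% of the beta chain signal in VprBP shRNA libraries and 77.2 ± 1.13% in control shRNA libraries, and these shares overlapped between the groups. Itgb5 held 16.8 ± 1.64% in VprBP shRNA libraries and 18.6 ± 0.550% in control shRNA libraries.

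Summed alpha chains came to 156 ± 3.04 CPM per kilobase in VprBP shRNA libraries and 118.5 ± 1.22 in control shRNA libraries, and summed beta chains to 362 ± 9.50 in VprBP shRNA libraries and 162 ± 3.44 in control shRNA libraries. The ratio of alpha to beta chains was thus 0.437, 0.437 and 0.419 in VprBP shRNA libraries, against 0.724, 0.719 and 0.757 in control shRNA libraries. The groups did not overlap, and a ratio within a library does not depend on the scaling between libraries. It does depend on length: without that division the ratio was 0.947 ± 0.0229 in VprBP shRNA libraries and 1.18 ± 0.0215 in control shRNA libraries, also without overlap (SD, n = 3 each). Itga5 over Itgb1, the fibronectin receptor pair, was 0.146 ± 0.00873 in VprBP shRNA libraries and 0.572 ± 0.0326 in control shRNA libraries.

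**Figure D3:**
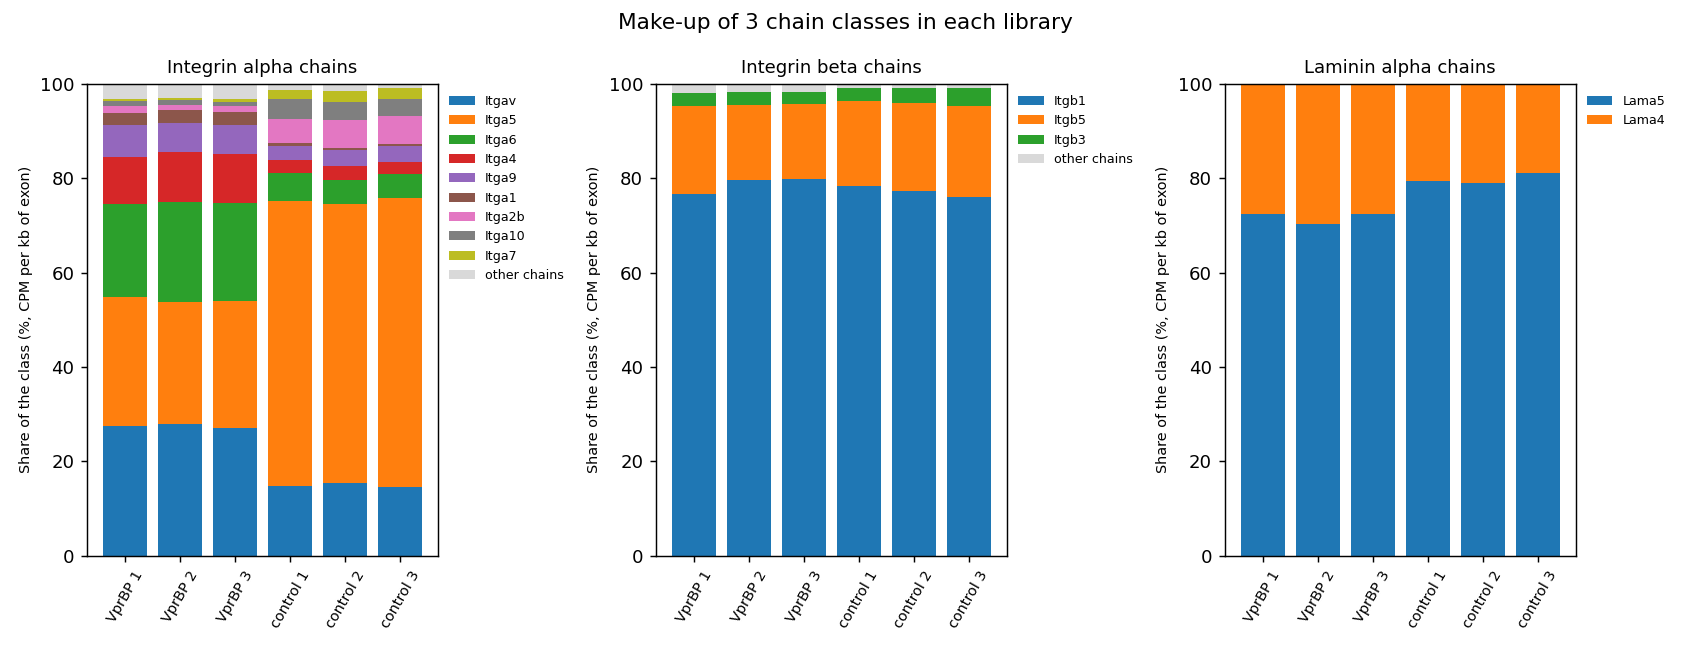
Share of each chain in its class by CPM per kilobase of exon, in percent, for integrin alpha, integrin beta and laminin alpha chains, with 1 bar per library and the VprBP shRNA libraries on the left. Itga5 fills 25.7% to 27.4% of the alpha chain bars in VprBP shRNA libraries and 58.9% to 61.2% in control shRNA libraries, while Itgb1 fills 76.7% to 79.9% of the beta chain bars in VprBP shRNA libraries and 76.1% to 78.3% in control shRNA libraries.

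The stretches just upstream of the start sites are shown for the alpha chain that dominates the control shRNA libraries and fell, and for 3 alpha chains that rose 5.12-fold to 20.1-fold, since these genes move in opposite directions. They are RefSeq promoters on GRCm38.p6, 5′ to 3′ on the strand of the gene, each 250 bases long and ending at the base before the start. Of the 30 chain genes, 18 have an entry in that table. Capitals mark a GC box, GGGCGG on either strand, a motif bound by Sp factors. The windows are chr15:103366792-103367041 on the minus strand for Itga5, chr2:79255176-79255425 on the plus strand for Itga4, and chr13:115101965-115102214 and chr13:114932101-114932350 on the minus strand for Itga1 and Itga2.
Itga5: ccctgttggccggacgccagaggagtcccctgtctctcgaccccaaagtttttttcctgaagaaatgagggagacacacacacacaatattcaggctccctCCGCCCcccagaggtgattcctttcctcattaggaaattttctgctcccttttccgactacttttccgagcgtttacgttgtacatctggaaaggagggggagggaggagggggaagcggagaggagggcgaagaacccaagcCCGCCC
Itga4: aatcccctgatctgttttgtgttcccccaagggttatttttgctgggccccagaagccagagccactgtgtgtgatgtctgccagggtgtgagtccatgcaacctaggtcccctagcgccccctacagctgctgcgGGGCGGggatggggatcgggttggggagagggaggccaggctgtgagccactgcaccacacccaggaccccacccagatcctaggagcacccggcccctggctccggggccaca
Itga1: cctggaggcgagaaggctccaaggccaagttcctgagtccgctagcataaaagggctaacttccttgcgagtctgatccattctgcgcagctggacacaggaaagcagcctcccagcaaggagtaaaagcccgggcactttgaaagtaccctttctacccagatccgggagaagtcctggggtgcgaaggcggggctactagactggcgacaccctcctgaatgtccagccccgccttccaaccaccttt
Itga2: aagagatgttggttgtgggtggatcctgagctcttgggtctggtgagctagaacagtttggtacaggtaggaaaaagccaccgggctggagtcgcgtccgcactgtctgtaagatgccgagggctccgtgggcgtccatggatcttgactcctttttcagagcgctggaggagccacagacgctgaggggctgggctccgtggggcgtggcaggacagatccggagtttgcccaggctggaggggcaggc
The Itga5 window held 2 GC boxes, the nearest beginning 6 bases before the start, the Itga4 window held 1, and the Itga1 and Itga2 windows held none. Windows with more than 30 bases in annotated exons were not printed. Those of Itga10 and Itga2b, which also fell, held no GC box. However, 33 bases of the Itga10 window and 180 of the Itga2b window lie in exons. The Itga2b window lies largely inside the annotated gene, so it is not comparable with the printed stretches. Windows of other chains that rose held from none (Itgav) to 4 (Lama5). Of 32851 promoter entries of this length, 32.7% held at least 1. None of the 4 windows held CATGTG or CACGTG (E-boxes) or TGANTCA (an AP-1 site), also searched on both strands, which 12.3%, 6.02% and 6.75% of all entries held. Among the chains not printed, CATGTG stood in a window of Lamb1, of Itga3 and of Itgb7. Base composition of the 4 printed windows was 55.6%, 64.0%, 57.6% and 60.8% G and C in the order printed, beside a median of 52.4% over all entries. A match is a description of the letters only.

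The 5 tested laminin chains all rose. Lama5, the alpha chain of the laminins common in adult basement membranes, was measured at 432, 406 and 419 CPM in VprBP shRNA libraries and at 286, 285 and 297 CPM in control shRNA libraries. It rose 1.45-fold (log2 difference 0.53, SE 0.04, edgeR adjusted p = 2.16e-09), the smallest of the 5 called laminin changes. Lama4, found in vessel and nerve basement membranes, stood at 175, 181 and 169.7 CPM in VprBP shRNA libraries and at 78.5, 80.65 and 72.9 CPM in control shRNA libraries. It rose 2.27-fold (log2 difference 1.18, SE 0.05, edgeR adjusted p = 7.58e-13). Per kilobase, Lama5 exceeded Lama4 by 2.61, 2.38 and 2.62 times in VprBP shRNA libraries and by 3.86, 3.74 and 4.32 times in control shRNA libraries, without overlap.

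Lamb2, the beta chain of nerve, muscle and kidney laminins, had 727, 637.5 and 660.2 CPM in VprBP shRNA libraries and 301, 314 and 329.9 CPM in control shRNA libraries. It rose 2.14-fold (log2 difference 1.10, SE 0.05, edgeR adjusted p = 9.41e-13). Lamb1, the beta chain typical of early development, had 29.55, 27.8 and 27.5 CPM in VprBP shRNA libraries and 6.37, 7.68 and 7.22 CPM in control shRNA libraries. It rose 4.01-fold (log2 difference 2.002, SE 0.11, edgeR adjusted p = 1.57e-11). Lamb2 held 97.4 ± 0.0837% of the laminin beta signal per kilobase in VprBP shRNA libraries and 98.6 ± 0.101% in control shRNA libraries. Lamc1, the gamma chain of nearly all laminins, stood at 386, 370.3 and 343 CPM in VprBP shRNA libraries and at 181, 186 and 184 CPM in control shRNA libraries. Its rise was 1.99-fold (log2 difference 0.996, SE 0.05, edgeR adjusted p = 1.79e-12).

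Of the laminin chains with too few counts to be tested, Lamb3, a chain of epithelial laminin, had 30 counts over the VprBP shRNA libraries and 1 over the control shRNA libraries. The ratio of its scaled counts was 28.7, with a 95% counting interval of 4.77 to 1171. Lama3, another chain of epithelial laminin, had 16 counts over the VprBP shRNA libraries and 4 over the control shRNA libraries, with overlapping groups. Lamc3 had 14 counts over the VprBP shRNA libraries and 7 over the control shRNA libraries, also with overlapping groups.

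The balance of receptor to ligand chains overlapped between the groups. Summed integrin chains came to 518 ± 11.2 CPM per kilobase in VprBP shRNA libraries and 280.1 ± 3.004 in control shRNA libraries, and summed laminin chains to 209.7 ± 10.5 in VprBP shRNA libraries and 107 ± 2.92 in control shRNA libraries. The ratio of integrin to laminin sums was 2.28, 2.58 and 2.57 in VprBP shRNA libraries and 2.69, 2.66 and 2.54 in control shRNA libraries, which overlap. Within the laminins, beta over gamma chains came to 2.57 ± 0.145 in VprBP shRNA libraries and 2.36 ± 0.0925 in control shRNA libraries, also overlapping. Alpha over gamma chains came to 1.16 ± 0.0541 in VprBP shRNA libraries and 1.43 ± 0.0202 in control shRNA libraries, without overlap.

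Other genes of the same matrix system mostly rose as well. Of 7 other laminin receptors all 7 rose, with a median log2 difference of 1.69. Among them is Rpsa, which also encodes a protein of the ribosome and rose 1.91-fold. The syndecan Sdc3, a heparan sulphate proteoglycan, averaged 78.8 ± 3.76 CPM in VprBP shRNA libraries and 3.87 ± 0.407 CPM in control shRNA libraries, and dystroglycan (Dag1), which ties laminin to the cytoskeleton outside the integrin system, 553 ± 15.8 CPM in VprBP shRNA libraries and 159 ± 2.73 CPM in control shRNA libraries. Sdc1 and Sdc2 rose 3.56-fold and 3.10-fold. Of 18 genes for basement membrane partners 15 were tested, 13 rose and 2 fell, with a median of 1.94. Hspg2, the proteoglycan perlecan, rose 9.76-fold, the type IV collagen chains Col4a1 and Col4a2 10.3-fold and 5.34-fold, and the proteoglycan agrin (Agrn) 3.85-fold. The 2 that fell, named after their values were seen, were Smoc1 and the laminin-binding linker Nid1, at 6.92 ± 0.305 CPM in VprBP shRNA libraries and 30.3 ± 0.593 CPM in control shRNA libraries, for a log2 difference of -2.13 (edgeR adjusted p = 2.6e-12). Its relative Nid2, also chosen after its values were seen, rose 7.33-fold.

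Of 30 other integrin ligands 23 were tested, 21 rose and 2 fell, with a median log2 difference of 1.61, which was the same with 2 genes without control shRNA counts set at their lower bound. Fibronectin (Fn1), the ligand of the chain Itga5, rose 3.06-fold, with 1365 ± 33.2 CPM in VprBP shRNA libraries and 446 CPM as the control shRNA mean. The type I collagen chain Col1a1 rose 20.3-fold and Edil3, a secreted ligand of Itgav pairs, 4.69-fold. The matricellular protein Ccn1 fell by 1.91 on the log2 scale, and Nrros, named after its values were seen, by 1.27. Nrros holds latent TGF-beta and is not itself an integrin ligand. The same holds for Lrrc32, which rose, so the list is wider than its name. Of 38 adaptor proteins on the inner side of the receptor 36 were tested, 25 rose and 9 fell, with a median of 0.87. Among them the integrin activator talin 2 (Tln2) rose 11.3-fold, the actin crosslinker Actn4 2.66-fold, the tensin Tns1 34.5-fold and Parva, part of the complex with integrin-linked kinase, 3.75-fold. Fermt3, the integrin activator of blood cells, fell by 2.09 on the log2 scale and was named after its values were seen. Beside these counts, 37.9% of all tested genes rose and 37.0% fell.

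**Figure D4:**
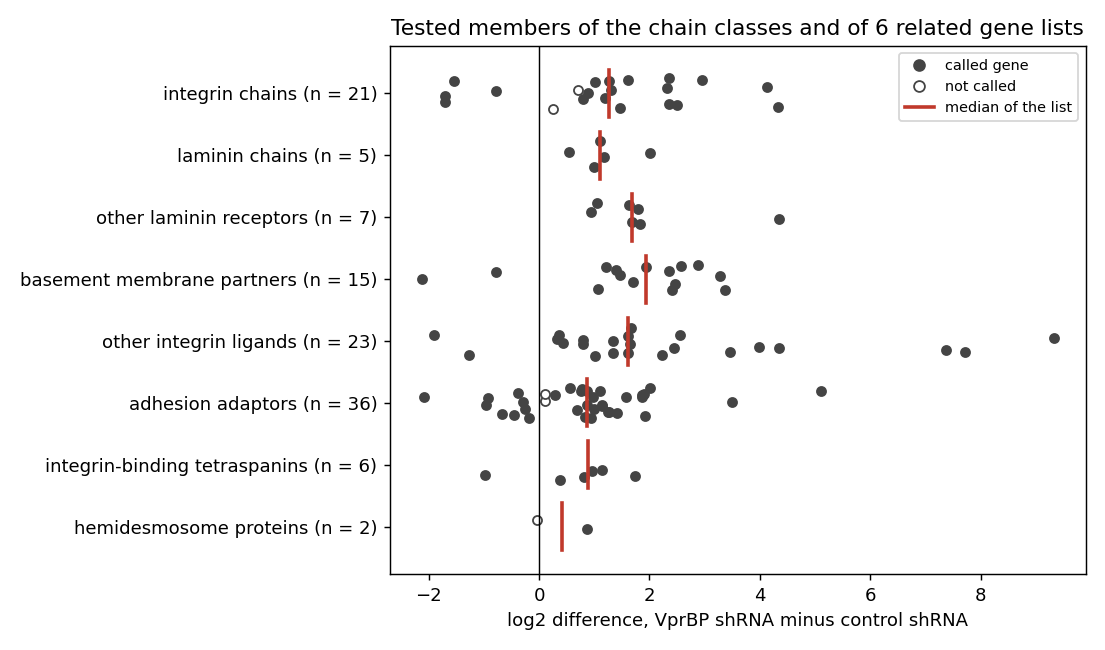
Fitted log2 difference, VprBP shRNA minus control shRNA, of each tested gene in the chain classes and in 6 related lists, with the median of each list as a red line and genes not called as open points. The fitted values of 2 ligands without control shRNA counts depend on the prior count. The medians of integrin chains (1.28), laminin chains (1.10), other laminin receptors (1.69), basement membrane partners (1.94) and other integrin ligands (1.61) lie to the right of the 0 line. So do those of adhesion adaptors (0.87), integrin-binding tetraspanins (0.89) and hemidesmosome proteins (0.42).

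Most markers of Schwann cells and part of the stromal markers were also higher. The summed level of 6 Schwann cell markers, all with a row, was 945 to 1019 CPM in VprBP shRNA libraries and 40.2 to 43.2 CPM in control shRNA libraries, and 5 of the 6 rose while Egr2 fell. Of 6 stromal cell markers 5 have a row, and they summed to 366 to 418 CPM in VprBP shRNA libraries and 47.3 to 50.3 CPM in control shRNA libraries. Of these, Col1a1, which also stands among the integrin ligands, averaged 302 ± 28.2 CPM in VprBP shRNA libraries and 14.9 ± 1.07 CPM in control shRNA libraries. Pdgfra and Pdgfrb rose as well, Lum was not tested, and Dcn fell, with 1.26 ± 0.365 CPM in VprBP shRNA libraries and 2.70 ± 0.297 CPM in control shRNA libraries. Endothelial markers summed to at most 0.539 CPM in VprBP shRNA libraries and 0.670 CPM in control shRNA libraries, with Kdr, Tek and Emcn without a row, and epithelial markers to at most 1.04 CPM in VprBP shRNA libraries and 2.48 CPM in control shRNA libraries, with Krt5 and Krt14 without a row. The part of the Schwann and stromal markers in the chains' differences was not tested.

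The 3 other products matched by the symbol pattern did not follow the chains. Itgb1bp1, a cytoplasmic protein that binds the tail of Itgb1 and restrains its activation, had 19.9, 19.9 and 22.7 CPM in VprBP shRNA libraries and 31.4, 36.1 and 39.5 CPM in control shRNA libraries. It fell by 0.77 on the log2 scale (SE 0.10, edgeR adjusted p = 1.21e-06), whereas Itgb1 rose. Exons of Cpsf3 and Asap2 overlap 5.5% and 11.4% of its exon bases on the opposite strand, and the strand setting of the counting is not given in the sources used here. Itgb3bp, which is a centromere protein rather than an integrin chain, averaged 5.28 ± 1.46 CPM in VprBP shRNA libraries and 6.49 ± 0.488 CPM in control shRNA libraries (edgeR adjusted p = 0.207). Itgb1bp2, the muscle protein melusin, averaged 0.372 ± 0.0840 CPM in VprBP shRNA libraries and 0.665 ± 0.0620 CPM in control shRNA libraries (edgeR adjusted p = 0.16).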

How the data were processed

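The authors deposited expected counts per gene, with no scaling. Partek and mm10 are named in the submitters' processing notes. The aligner, counter and strand setting are not named in these sources. In each library 62.1% to 64.5% of values were whole within 0.001, and the lowest row total was 10 counts. Per the labels' protocols, libraries came from a SMARTer kit for mRNA. Each of the 6 columns was matched to its library by name.

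Expected counts were rounded and tested over the whole table with the quasi-likelihood test of edgeR 4.0.16 (R 4.3.3), after filterByExpr and TMM scaling, with group as the only term. Adjusted p values are Benjamini-Hochberg over the 14641 tested genes. Folds come from the edgeR log2 difference, VprBP shRNA minus control shRNA, and need not equal ratios of means. The standard error is the log2 difference divided by the square root of F. Levels are TMM-scaled CPM, as mean ± SD over 3 libraries. Exon length is the union of exons in GENCODE M21 on GRCm38, where 32 of the 33 genes matched with their version and all 33 had the same coordinates as deposited. The fit was tested on simulated data. The members, gene lists, marker lists and call rules were chosen with earlier results of these data known. Named were the members, except for 1 item that is not reported here, with values per library for those averaging at least 10 CPM in a group or called at least 4-fold apart, and up to 4 called genes per related list by smallest p. Alternatives were other scalings and filters, DESeq2 1.42.0, a replicate block and leaving out each library.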

Additional observations from a re-analysis of the deposited data

How the results depend on the processing

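Of the 24 called chains, 23 kept their direction and their call under all 14 alternatives, with DESeq2, the 3 other scalings and each left-out library among them. Itgal kept them under the 13 that tested it, and a filter of at least 1 CPM in at least 3 libraries removed it. Itgae, not called, turned negative without VprBP shRNA replicate 3 (-0.0921) and without control shRNA replicate 1 (-0.0513), and leaving out single libraries gave -0.0921 to 0.644 for it. With scaling by library size alone, the all-gene median was 0.10 in place of -0.01, the median log2 difference 1.39 for integrin chains and 1.22 for laminin chains, and Dcaf1 stood at -0.12 (edgeR adjusted p = 0.137). The 1 CPM filter gave an integrin median of 1.22. No filter gave 6 laminin chains at least 2-fold higher in place of 3, and a laminin median of 1.19. Lamc1 was 1 of the 3 added, at a log2 difference of 1.01 in place of 0.996. Leaving out single libraries gave integrin medians of 1.16 to 1.30 and laminin medians of 1.05 to 1.15. The cause of these shifts was not tested. Deviations of same-numbered libraries correlated at -0.03, 0.01 and -0.04, so no shared deviation by number was seen. A weak effect of shared preparation could give the same values, so they do not show whether the libraries were paired. With the number as a replicate block 15 integrin chains rose, 4 fell and 5 laminin chains rose, as without it. Depth limits the 4 untested laminin chains, Itga2, Itgal and Itgb2, whose folds rest on few control shRNA counts.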

Other observations

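Tetraspanins that bind integrins, membrane proteins that gather them into clusters, were described by a list of 6, of which 5 rose and 1 fell, with a median log2 difference of 0.89. Of all tested genes 37.9% rose and 37.0% fell, which is the background for this count and the next. Cd81 averaged 1080 ± 23.9 CPM in VprBP shRNA libraries and 325 CPM in control shRNA libraries and rose 3.32-fold. Tspan4 rose 2.20-fold and Cd9 1.94-fold, whereas Cd63, a protein of late endosomes and of pigment organelles, fell by 0.98 on the log2 scale. The summed level of the 6 was lower, at 3574 ± 65.8 CPM in VprBP shRNA libraries and 3802 ± 72.6 CPM in control shRNA libraries. Cd63, the only member that fell, made up 1434 ± 19.4 CPM in VprBP shRNA libraries and 2824 ± 68.3 CPM in control shRNA libraries.

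Of 5 hemidesmosome proteins, the partners of Itga6 and Itgb4 in epithelia, 2 were tested and 1 rose. Krt5 and Krt14 have no row and Col17a1 was not tested. The linker plectin (Plec) rose 1.84-fold, with 341 ± 17.6 CPM in VprBP shRNA libraries and 186 CPM in control shRNA libraries. Dst, the other linker, averaged 426 ± 8.19 CPM in VprBP shRNA libraries and 438 CPM in control shRNA libraries (edgeR adjusted p = 0.394).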
